A study of Mus musculus with 12 samples.

Results

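The genes described here are 40 genes of cell division and DNA replication, chosen by symbol, in the colon of 2-week-old mice. Of the 35688 genes with a summed abundance, 40 carried these symbols, and all 40 were measured above the low-value limit used for testing. They were split by the work of their proteins into a replication set of 16 genes, which copy DNA or prepare the cell to do so, and a mitosis set of 24 genes, which condense, pull apart and divide the copied chromosomes.

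A dividing cell first loads the MCM helicase onto replication origins with the help of Cdc6 and Cdt1. Cyclin E and the E2F transcription factors then drive entry into S phase, when PCNA clamps the polymerases to DNA and ribonucleotide reductase and thymidylate synthase supply nucleotides. Cyclins A and B with Cdk1 later drive entry into mitosis, the spindle and its checkpoint align the chromosomes, and the anaphase-promoting complex with Cdc20 and Ube2c destroys the cyclins to end mitosis. In the colon these genes are used mainly in the lower crypt, where stem and progenitor cells renew the lining.

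Whole colons were taken from 2 genotypes. The 6 Il10-/- Tnfr1-/- mice lacked the cytokine interleukin 10 and TNF receptor 1, the product of Tnfrsf1a, and the 5 Il10-/- mice used here lacked interleukin 10 alone. Loss of Il10 is a setting in which mice develop colitis, both genotypes carry it, and no wild-type colon was among the samples. Each value is the abundance of a gene's transcripts on the authors' deposited scale, which is per transcript length and is not a count, so sequencing depth is unknown and the number of mice limits the precision. Each sample is the full thickness of the colon of 1 mouse, muscle wall included, and the labels name neither litter nor sex.

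Library totals lay between 804109 and 1378971, and 38.5% to 43.4% of genes were at 0. Tnfrsf1a averaged 14.8 ± 2.34 in Il10-/- Tnfr1-/- colons and 47.9 ± 18.5 in Il10-/- colons (SD, n = 6 and 5), from 12.0 to 17.0 in Il10-/- Tnfr1-/- and from 30.6 to 78.1 in Il10-/- colons. Il10 transcripts averaged 5.14 ± 1.57 in Il10-/- Tnfr1-/- and 15.3 ± 6.44 in Il10-/- colons, a log2 fold change of -1.44 ± 0.28 (SE; limma unadjusted p = 0.000226, adjusted p = 0.536). Which part of Il10 the allele lacks was not in the labels, so these transcripts check nothing about it. Markers of the colon were present in every library: Epcam, an adhesion protein of epithelium, lay between 646.4 and 1450.2 in Il10-/- Tnfr1-/- colons and between 779.7 and 1019.9 in Il10-/- colons. Sample names start with a digit from 1 to 4 whose meaning the labels do not give. Names starting with 1 cover Il10-/- Tnfr1-/- replicates 1 and 2 and Il10-/- replicates 1, 2 and 3, while every other digit belongs to 1 genotype, so beyond those 5 libraries digit and genotype cannot be told apart.

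Promoter sequences are shown because replication and mitosis genes are known for different short promoter motifs. E2F proteins bind a site searched here as TTTNNCGC, and the cell cycle homology region (CHR), bound by the MuvB complex, was searched as TTTGAA or TTCGAA. The CCAAT box, bound by NF-Y, was searched by its letters, and every motif was sought on both strands. RefSeq (GRCm38.p6) gave a promoter for 32 of the 40 genes, and the window was the 250 bases before the listed start. Only the first listed start of a gene was used. The Mcm7 window lies wholly inside the gene's annotated span, chr5:138164583-138172422. Printed are the 3 genes of highest mean abundance with an E2F match in the replication set and the 3 with a CHR match in the mitosis set. Each runs 5′ to 3′ on the gene's strand, and capitals mark the match (E2F in the first 3, CHR in the last 3). Overlapping matches form 1 run of capitals, and a match to the other strand reads as its reverse complement.
Mcm7, chr5:138171884-138172133, minus strand: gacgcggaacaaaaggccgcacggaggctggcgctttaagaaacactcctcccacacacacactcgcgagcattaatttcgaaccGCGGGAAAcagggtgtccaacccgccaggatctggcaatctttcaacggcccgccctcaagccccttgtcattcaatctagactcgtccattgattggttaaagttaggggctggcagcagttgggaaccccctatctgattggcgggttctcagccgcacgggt
Mcm6, chr1:128359706-128359955, minus strand: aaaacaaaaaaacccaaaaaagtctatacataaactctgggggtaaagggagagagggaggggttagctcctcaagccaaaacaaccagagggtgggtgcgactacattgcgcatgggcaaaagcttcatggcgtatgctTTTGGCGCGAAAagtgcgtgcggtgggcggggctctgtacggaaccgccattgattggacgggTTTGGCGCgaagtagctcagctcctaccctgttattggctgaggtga
Mcm5, chr8:75109259-75109508, plus strand: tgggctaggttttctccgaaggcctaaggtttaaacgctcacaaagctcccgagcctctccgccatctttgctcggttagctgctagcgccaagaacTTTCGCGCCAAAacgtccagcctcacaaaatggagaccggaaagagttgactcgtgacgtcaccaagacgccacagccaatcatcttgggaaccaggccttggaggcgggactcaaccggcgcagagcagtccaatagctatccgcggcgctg
Top2a, chr11:99024190-99024439, minus strand: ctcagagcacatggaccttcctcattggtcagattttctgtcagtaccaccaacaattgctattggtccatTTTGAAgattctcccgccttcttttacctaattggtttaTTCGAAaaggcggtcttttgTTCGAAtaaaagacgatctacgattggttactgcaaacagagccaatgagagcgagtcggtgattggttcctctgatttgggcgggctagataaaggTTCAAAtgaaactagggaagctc
Ube2c, chr2:164769679-164769928, plus strand: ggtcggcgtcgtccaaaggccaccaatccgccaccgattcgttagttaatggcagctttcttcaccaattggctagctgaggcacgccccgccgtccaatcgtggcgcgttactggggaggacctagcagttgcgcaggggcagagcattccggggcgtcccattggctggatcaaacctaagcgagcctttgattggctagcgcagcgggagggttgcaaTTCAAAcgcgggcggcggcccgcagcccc
Cdk1, chr10:69352913-69353162, minus strand: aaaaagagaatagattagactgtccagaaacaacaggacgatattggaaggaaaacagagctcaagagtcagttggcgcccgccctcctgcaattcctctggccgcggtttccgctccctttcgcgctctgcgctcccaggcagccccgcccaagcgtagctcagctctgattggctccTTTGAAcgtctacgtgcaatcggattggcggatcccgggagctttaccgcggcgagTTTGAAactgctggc

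The E2F letters were in 4 of 13 replication promoters (30.8%) and in 1 of 19 mitosis promoters (5.26%), against 4.39% of all 27025 promoters of this length. The CHR letters were in 8 of 19 mitosis promoters (42.1%) and 2 of 13 replication promoters (15.4%), against 17.4% of all promoters. CCAAT was in 17 of 19 mitosis promoters (89.5%) and 8 of 13 replication promoters (61.5%), against 34.5% of all promoters. The E2F and CHR letters searched here cannot share bases, so the 0 promoters with overlapping matches describe the search and not the promoters. Cdk1, in the mitosis set, held 2 CHR and 2 E2F matches. Mcm7, in the replication set, held 1 of each. A match describes the letters in a window and not a bound site.

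Across these genes single animals stood further apart than the genotypes did. Il10-/- replicate 1 had the highest abundance of all 11 libraries for 31 of the 40 genes, 22 of 24 in the mitosis set and 9 of 16 in the replication set. Over all 13561 genes tested the same library was highest for 17.2%. Its level over the median of the other 4 Il10-/- libraries had a median ratio of 2.73 over the 40 genes, 2.96 in the mitosis set (range 1.58 to 5.66) and 2.10 in the replication set (range 1.14 to 3.997), against 1.07 over all genes tested. The largest ratio was that of Hmmr, whose product is a microtubule-binding protein of the spindle. It was at 17.5 in Il10-/- replicate 1 and between 2.93 and 5.67 in the other Il10-/- libraries.

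Among the Il10-/- Tnfr1-/- colons, replicate 4 was the highest of its genotype for 36 of the 40 genes, 14 in the replication set and 22 in the mitosis set, and replicate 3 for 1. Il10-/- Tnfr1-/- replicate 1 was lowest for 9 mitosis genes and 1 replication gene, whereas Il10-/- Tnfr1-/- replicate 6 was lowest for 7 replication genes and 1 mitosis gene. Il10-/- replicates 5 and 3 were lowest for 9 and 8 genes over both sets. The median SD of the log2 abundance over the 40 genes was 0.46 in Il10-/- Tnfr1-/- and 0.75 in Il10-/- colons, against 0.35 in Il10-/- Tnfr1-/- and 0.45 in Il10-/- colons over all genes tested.

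**Figure D1:**
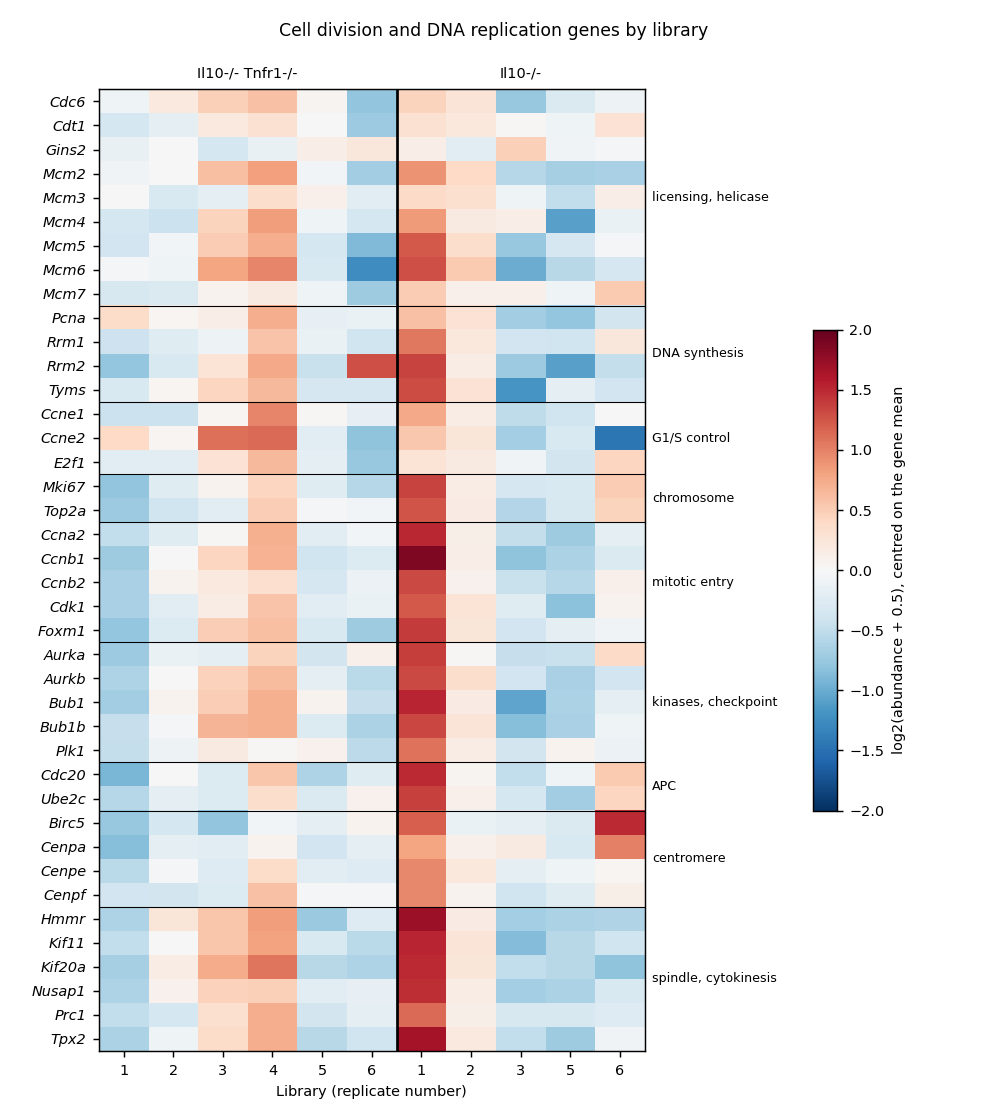
Heat map of the 40 genes (rows, grouped by role) in the 6 Il10-/- Tnfr1-/- and 5 Il10-/- libraries (columns, by replicate number), as log2(abundance + 0.5) minus the gene's mean over the libraries. Most rows are darkest red in Il10-/- replicate 1, the highest library for 31 of 40 genes, and red in Il10-/- Tnfr1-/- replicate 4.

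Between the genotypes, limma with Benjamini-Hochberg adjustment called 0 of the 40 genes, and 0 of the 13561 genes tested (0%). The adjusted p of the 40 genes lay between 0.536 and 0.998, and the smallest over all genes was 0.125, for Tnfrsf1a. At an unadjusted p under 0.05 there were 3 of the 40, Cenpa, Birc5 and Mcm7, all lower in Il10-/- Tnfr1-/- colons. Over all genes, 8.34% had such a p, 3.6% lower and 4.74% higher. For 0 of the 40 genes did the genotypes separate without overlap, against 0.575% of all genes tested.

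On the deposited scale most of the 40 log2 fold changes, Il10-/- Tnfr1-/- minus Il10-/-, were below 0, none past the threshold, but 21 of 40 were above 0 once every library was given an equal total. A log2 fold change here is the difference between the genotypes' mean log2 values. On the deposited scale it was below 0 for 27 genes and above 0 for 13, where it was below 0 for 44.5% of all genes tested. The mean of the untransformed abundance, on which single high libraries weigh more, was lower in Il10-/- Tnfr1-/- colons for 34 of the 40. The median log2 fold change was -0.12 over the 40 genes and 0.05 over all genes tested. With an equal total it was 0.02 over the 40 genes and 0.19 over all genes tested. An equal total moves all genes nearly alike, so it could not change the place of the 40 genes below the median of all genes. In the mitosis set the log2 fold change was below 0 for 20 of 24 genes, with a median of -0.19, and in the replication set for 7 of 16, with a median of 0.01. With an equal total it was above 0 for 10 of 24 mitosis genes, and with median-ratio size factors 1 of 24. In whole colon, fewer dividing cells and less RNA per dividing cell cannot be told apart. Without Il10-/- replicate 1 the sign of the whole group turned: the log2 fold change was above 0 for 24 of 40 genes, 14 of 24 in the mitosis set. The median over the 40 genes was then 0.13, above the 0.07 over all genes tested.

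**Figure D2:**
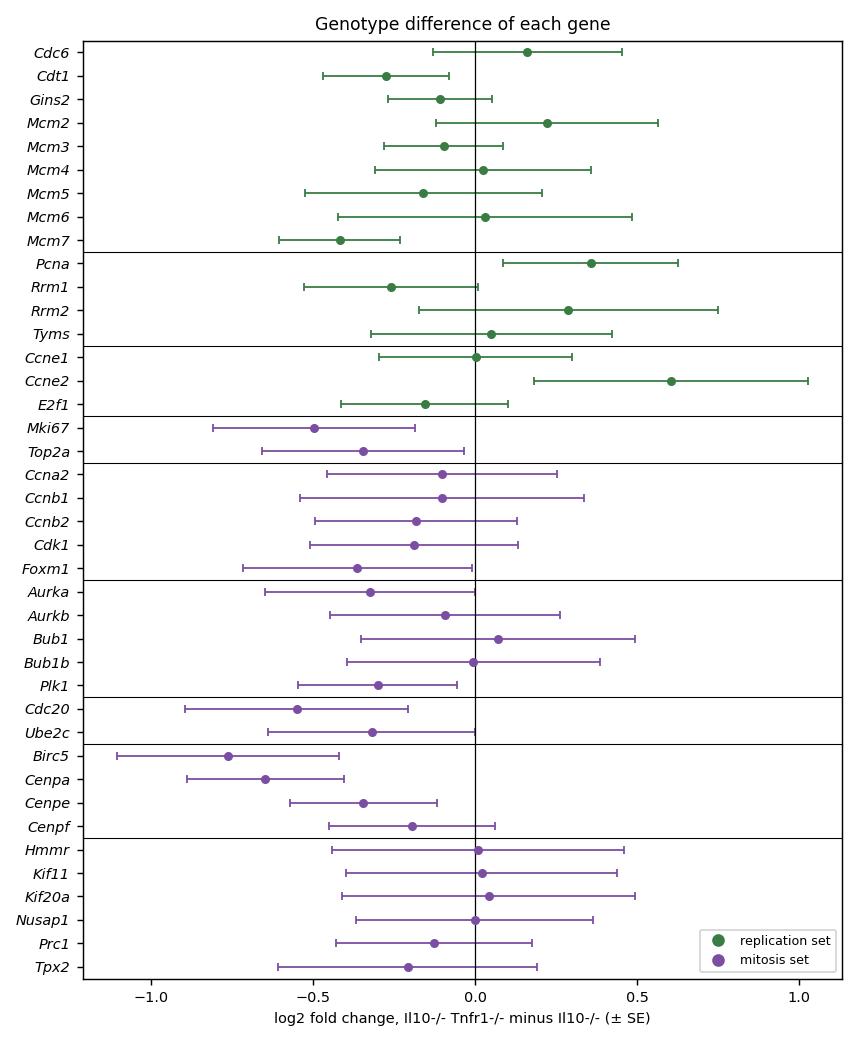
The log2 fold change of each gene, Il10-/- Tnfr1-/- minus Il10-/-, as a point with its SE as a bar, in rows grouped by role. The 4 centromere and passenger genes and both chromosome-structure genes lie left of 0, while Pcna and Ccne2 lie farthest right, at 0.36 and 0.61.

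A score per library, the mean over a set of the log2 abundance centred on each gene's mean, shows the same. The replication scores were -0.20, -0.14, 0.29, 0.63, -0.13 and -0.42 in Il10-/- Tnfr1-/- replicates 1 to 6, against 0.75, 0.22, -0.42, -0.45 and -0.15 in Il10-/- replicates 1, 2, 3, 5 and 6. The mitosis scores were -0.64, -0.11, 0.15, 0.54, -0.29 and -0.28 in Il10-/- Tnfr1-/- colons, against 1.35, 0.15, -0.47, -0.46 and 0.06 in Il10-/- colons. The genotypes overlapped in both, and the highest score of each set was in Il10-/- replicate 1.

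The mean replication score was 0.01 ± 0.38 in Il10-/- Tnfr1-/- and -0.01 ± 0.50 in Il10-/- colons (SD, n = 6 and 5), a difference of 0.02. The mean mitosis score was -0.10 ± 0.41 in Il10-/- Tnfr1-/- and 0.13 ± 0.74 in Il10-/- colons, a difference of -0.23. Both differences were smaller than the SD within either genotype. Without Il10-/- replicate 1 they were 0.21 for replication and 0.075 for mitosis, and with an equal total per library 0.15 and -0.093, so the sign of the mitosis difference turned without that library.

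The replication score minus the mitosis score compares the sets inside each colon. It was 0.44, -0.03, 0.14, 0.09, 0.17 and -0.14 in Il10-/- Tnfr1-/- replicates 1 to 6, and -0.60, 0.07, 0.05, 0.01 and -0.21 in Il10-/- replicates 1, 2, 3, 5 and 6. Il10-/- Tnfr1-/- replicate 1 stood highest, with few mitosis transcripts for its replication transcripts, and Il10-/- replicate 1 lowest, with many. The means were 0.11 ± 0.20 in Il10-/- Tnfr1-/- and -0.13 ± 0.28 in Il10-/- colons (SD, n = 6 and 5), a difference of 0.25, above the SD within Il10-/- Tnfr1-/- colons and below that within Il10-/- colons. Without Il10-/- replicate 1 the mean of the other 4 Il10-/- colons was -0.02 ± 0.13 and the difference was 0.13. These scores were given no test, because the genes were chosen with results of these data known.

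**Figure D3:**
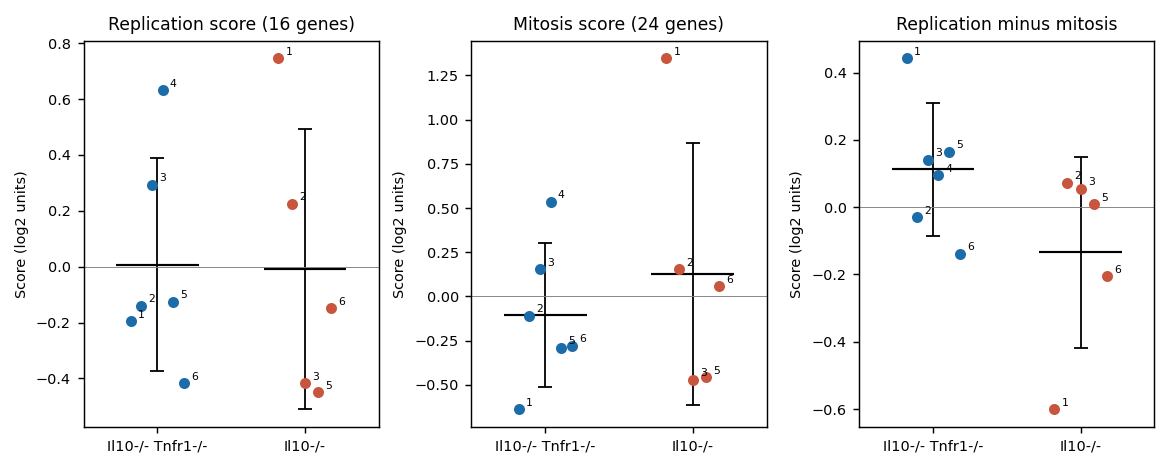
Scores per library in log2 units for the replication set, the mitosis set and their difference, with Il10-/- Tnfr1-/- left of Il10-/-. Each point is 1 library with its replicate number, lines are means and bars are SD; Il10-/- replicate 1 is highest in both sets, at 0.75 and 1.35, and lowest in the difference, at -0.60.

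Markers of other cells varied between the same libraries. The summed level of the 10 smooth muscle markers, all of them tested, ran from 827.7 to 8010 in Il10-/- Tnfr1-/- and from 184.4 to 3505.5 in Il10-/- colons, and all 10 had a log2 fold change above 0. Replicates 3 and 4 of Il10-/- Tnfr1-/- had the highest smooth muscle score, 2.26 each, and Il10-/- replicates 5 and 6 the lowest, -2.64 and -2.38. With that score in the model the set differences were -0.22 for replication, -0.39 for mitosis and 0.17 for replication minus mitosis.

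Of 8 neutrophil markers, 4 passed the filter, all with a log2 fold change below 0. Elane was at 0 in every library, and Mpo, Ngp and Camp reached at most 0.060, 0.11 and 1.40. The lowest Il10-/- values of S100a8 and S100a9 were 7.74 and 1.84. The 5 Il10-/- libraries alone thus sufficed for these 2 markers to pass the filter. The summed level of the 8 markers ran from 6.52 to 97.2 in Il10-/- Tnfr1-/- and from 34.7 to 535.4 in Il10-/- colons, with the highest sum in Il10-/- replicate 1, where Ly6g alone was at 437.5. The neutrophil score was highest in Il10-/- replicate 6, at 3.44, and next in Il10-/- replicate 1, at 2.84. The 10 colon epithelium markers summed to between 7503 and 23895 in Il10-/- Tnfr1-/- and between 9797 and 21129 in Il10-/- colons. Of the crypt stem and progenitor markers, 8 of 9 tested had a log2 fold change above 0, with a median of 0.39, and their score in Il10-/- replicate 1 was -0.08, inside the range of either genotype. Il10-/- replicate 1 also carried the highest Hoxb13, a gene of the most distal gut, at 140.5, against 0.033 to 63.4 in Il10-/- Tnfr1-/- colons, and the lowest Cdx2, an intestinal transcription factor, at 23.7. These are 2 single markers. Over the 6 markers of colon rather than small intestine, Hoxb13 among them, the score of that library was 0.43. Over the 10 colon epithelium markers, Cdx2 among them, it was -0.02. Both scores lay inside the Il10-/- Tnfr1-/- ranges, -0.68 to 1.02 and -0.63 to 0.93. The part of these differences in the levels of division genes was not tested.

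**Figure D4:**
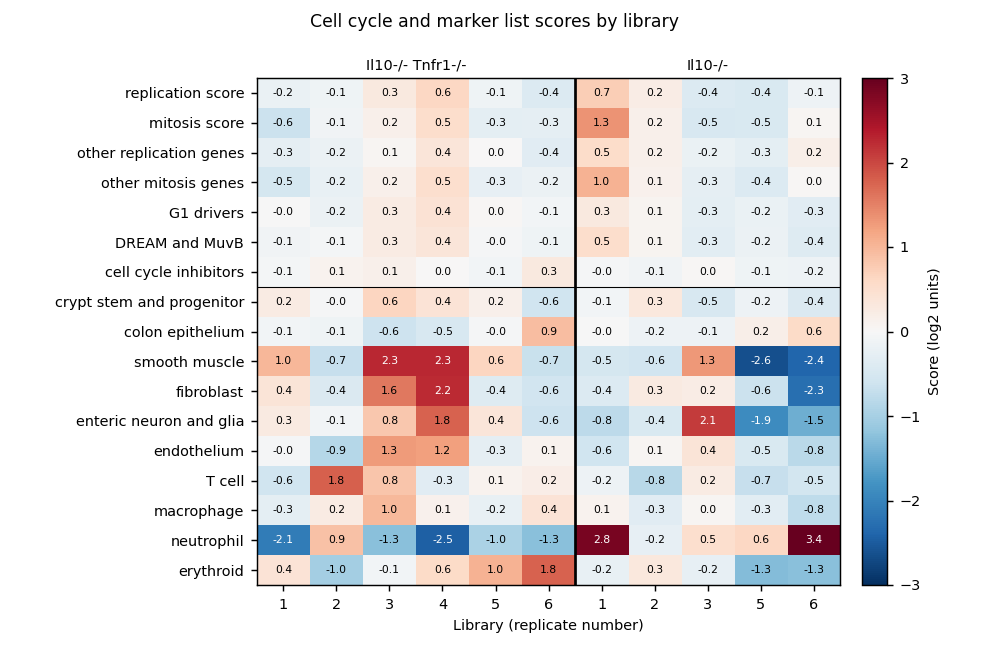
Heat map of scores in log2 units, for the cell cycle lists (above the line) and the cell type marker lists (below it), in the 6 Il10-/- Tnfr1-/- and 5 Il10-/- libraries. Il10-/- replicate 1 is the reddest column for the mitosis score, at 1.35, while the smooth muscle score is highest in Il10-/- Tnfr1-/- replicates 3 and 4.

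The replication genes were taken by role. The 9 genes of origin licensing and the helicase had a median log2 fold change of -0.10, 4 above 0 and 5 below. Mcm7, a subunit of the MCM helicase at chr5:138164583-138172422 (mm10), had the highest mean of them. Its abundance was 21.0, 21.5, 27.7, 30.0, 24.8 and 15.8 in Il10-/- Tnfr1-/- colons, and 37.6, 28.4, 28.2, 24.6 and 37.9 in Il10-/- colons. The 2 highest libraries were Il10-/-, and the genotypes overlapped between 24.6 and 30.0. The means were 23.5 ± 5.12 in Il10-/- Tnfr1-/- and 31.3 ± 6.04 in Il10-/- colons (SD, n = 6 and 5), a log2 fold change of -0.42 ± 0.19 (SE; limma unadjusted p = 0.0440, adjusted p = 0.536). On its leading transcript alone, which is protein-coding, it was -0.03.

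Mcm6 encodes another subunit of the same ring. It had 15.7, 15.2, 28.4, 32.1, 12.9 and 6.54 in Il10-/- Tnfr1-/- colons and 40.0, 23.3, 7.84, 10.9 and 12.6 in Il10-/- colons, with a log2 fold change of 0.03 ± 0.45 (SE). Each genotype held libraries both above 20 and below 13. The other helicase subunits Mcm2, Mcm3, Mcm4 and Mcm5 had log2 fold changes of 0.22, -0.10, 0.02 and -0.16. The loading factors Cdc6 and Cdt1 had 0.16 and -0.27, and Gins2, a subunit of the GINS complex that activates the helicase, had -0.11.

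DNA synthesis and nucleotide supply were led by Pcna, the sliding clamp, at chr2:132249162-132253314 and the most abundant of the 40 genes. Its abundance was 153.1, 121.9, 130.1, 196.3, 105.7 and 108.0 in Il10-/- Tnfr1-/- colons, and 178.5, 144.3, 73.1, 68.8 and 91.6 in Il10-/- colons. All 6 Il10-/- Tnfr1-/- libraries lay above the Il10-/- median, while Il10-/- replicates 1 and 2 lay within the Il10-/- Tnfr1-/- range. The means were 135.9 ± 34.3 in Il10-/- Tnfr1-/- and 111.2 ± 48.1 in Il10-/- colons, a log2 fold change of 0.36 ± 0.27 (SE; limma adjusted p = 0.583). Without Il10-/- replicate 1 it was 0.55, with an unadjusted p of 0.0448, and Pcna was then the only one of the 40 genes with a p under 0.05, against 18.2% of all genes tested. It was 0.21 without Il10-/- replicate 5.

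Rrm2, the small subunit of ribonucleotide reductase, showed single libraries apart in both genotypes. It had 8.46, 11.8, 17.9, 25.3, 10.7 and 36.9 in Il10-/- Tnfr1-/- colons and 38.4, 16.5, 8.73, 6.71 and 10.5 in Il10-/- colons, a log2 fold change of 0.29 ± 0.46 (SE). Replicate 6 of Il10-/- Tnfr1-/-, the lowest library for 7 replication genes, was thus the second highest for Rrm2. The large subunit Rrm1 and the thymidylate synthase gene Tyms had log2 fold changes of -0.26 and 0.05.

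In G1/S control the largest positive fold change of the 40 genes was that of Ccne2, which encodes cyclin E2, at chr4:11191351-11204779. It had 5.21, 3.97, 8.82, 9.03, 3.28 and 2.00 in Il10-/- Tnfr1-/- colons, and 5.86, 4.63, 2.21, 3.03 and 1.10 in Il10-/- colons. Replicates 3 and 4 of Il10-/- Tnfr1-/- were above every Il10-/- library, and the other 4 lay inside the Il10-/- range. The means were 5.39 ± 2.93 in Il10-/- Tnfr1-/- and 3.37 ± 1.90 in Il10-/- colons, a log2 fold change of 0.61 ± 0.42 (SE; limma adjusted p = 0.562). The smooth muscle score was also highest in replicates 3 and 4. That score itself differed by genotype, at 0.80 ± 1.32 in Il10-/- Tnfr1-/- and -0.96 ± 1.60 in Il10-/- colons. With it in the model the log2 fold change of Ccne2 was 0.07, and 4 of the 40 genes had one above 0. The part of muscle in the Ccne2 values was not tested. Without the score in the model, the log2 fold change of Ccne2 was 0.33 when Il10-/- replicate 6 was left out.

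Ccne1, the gene of cyclin E1, had 3.19, 3.17, 4.58, 9.31, 4.56 and 3.93 in Il10-/- Tnfr1-/- colons and 7.87, 4.996, 2.998, 3.25 and 4.50 in Il10-/- colons. Its means were 4.79 ± 2.30 in Il10-/- Tnfr1-/- and 4.73 ± 1.95 in Il10-/- colons, and its log2 fold change was 0.00 ± 0.30 (SE; limma adjusted p = 0.997). E2f1, a transcription factor that switches on replication genes, had a log2 fold change of -0.16.

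The mitosis genes began with the proliferation markers. Mki67, whose product Ki-67 coats mitotic chromosomes, lies at chr7:135689784-135716361. It had 10.3, 15.2, 19.1, 24.7, 15.2 and 12.1 in Il10-/- Tnfr1-/- colons, and 46.9, 20.2, 14.2, 14.6 and 26.2 in Il10-/- colons. Il10-/- replicates 1 and 6 were above every Il10-/- Tnfr1-/- library, and the other 3 were inside their range. The means were 16.1 ± 5.19 in Il10-/- Tnfr1-/- and 24.4 ± 13.5 in Il10-/- colons, a log2 fold change of -0.50 ± 0.31 (SE; limma adjusted p = 0.538), and -0.23 without Il10-/- replicate 1.

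Top2a encodes the topoisomerase that untangles copied chromosomes. It had 36.6, 46.0, 52.3, 86.3, 59.2 and 58.8 in Il10-/- Tnfr1-/- colons and 146.4, 68.0, 40.5, 48.6 and 82.7 in Il10-/- colons. Its log2 fold change was -0.35 ± 0.31 (SE; limma adjusted p = 0.621), and -0.08 without Il10-/- replicate 1.

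All 5 genes of mitotic entry had a log2 fold change below 0, with a median of -0.18. Cdk1, the kinase that starts mitosis, had 28.3, 38.1, 49.4, 66.3, 37.9 and 40.5 in Il10-/- Tnfr1-/- colons and 105.2, 54.2, 37.5, 25.1 and 46.7 in Il10-/- colons. The highest and the lowest of the 11 values were both Il10-/-. Its log2 fold change was -0.19 ± 0.32 (SE; limma adjusted p = 0.793), and 0.09 without Il10-/- replicate 1.

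Foxm1, a transcription factor for late cell cycle genes, had 3.65, 5.33, 9.41, 10.2, 5.20 and 3.81 in Il10-/- Tnfr1-/- colons and 18.1, 7.89, 4.90, 5.68 and 6.26 in Il10-/- colons, with a log2 fold change of -0.36 ± 0.35 (SE), and -0.065 without Il10-/- replicate 1. The cyclin genes Ccnb1, Ccnb2 and Ccna2, whose proteins bind Cdk1, had -0.10, -0.18 and -0.10. Ccnb1 reached 51.6 in Il10-/- replicate 1, against 22.5 as its highest Il10-/- Tnfr1-/- value.

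Of the 5 genes of mitotic kinases and the spindle checkpoint, 4 had a log2 fold change below 0. Plk1, a kinase of spindle assembly, had 14.4, 18.9, 23.2, 20.8, 21.5 and 14.004 in Il10-/- Tnfr1-/- colons and 43.6, 22.7, 15.8, 21.4 and 18.7 in Il10-/- colons. Apart from Il10-/- replicate 1 the 2 genotypes covered nearly the same range, and its log2 fold change was -0.30 ± 0.24 (SE; limma adjusted p = 0.595) with that library and -0.07 without it. Aurka and Aurkb, the aurora kinases, had -0.32 and -0.09, and the checkpoint genes Bub1 and Bub1b had 0.07 and -0.01.

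Both genes that work with the anaphase-promoting complex had a log2 fold change below 0. Cdc20, its activator, at chr4:118432901-118437352, had 10.2, 19.5, 16.2, 29.0, 12.6 and 16.6 in Il10-/- Tnfr1-/- colons, and 56.3, 20.4, 13.9, 18.4 and 28.6 in Il10-/- colons. Il10-/- replicate 1 stood apart, and Il10-/- Tnfr1-/- replicate 4 was next. The means were 17.3 ± 6.56 in Il10-/- Tnfr1-/- and 27.5 ± 16.9 in Il10-/- colons, a log2 fold change of -0.55 ± 0.34 (SE; limma adjusted p = 0.538), and -0.25 without Il10-/- replicate 1. Ube2c, its ubiquitin-conjugating enzyme, had 37.6, 49.4, 46.6, 72.1, 45.8 and 59.8 in Il10-/- Tnfr1-/- colons and 145.9, 60.6, 44.03, 34.5 and 76.1 in Il10-/- colons, a log2 fold change of -0.32 ± 0.32 (SE), and -0.02 without Il10-/- replicate 1.

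The centromere and chromosomal passenger genes had the lowest median log2 fold change of the 9 roles, -0.50, with all 4 below 0. Cenpa, the histone variant that marks centromeres, lies at chr5:30666777-30674830 and had the smallest p of the 40 genes. It had 16.7, 27.0, 25.98, 32.2, 23.4 and 26.8 in Il10-/- Tnfr1-/- colons, and 53.2, 32.9, 34.7, 24.6 and 62.1 in Il10-/- colons. In Il10-/- colons 4 of 5 values lay above all 6 Il10-/- Tnfr1-/- values, and replicate 5 lay among them. The means were 25.3 ± 5.11 in Il10-/- Tnfr1-/- and 41.5 ± 15.6 in Il10-/- colons, a log2 fold change of -0.65 ± 0.24 (SE; limma unadjusted p = 0.0204, adjusted p = 0.536).

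Birc5 encodes survivin, the passenger protein that brings Aurora B to centromeres, at chr11:117849251-117855743. It had 32.2, 43.0, 31.6, 52.6, 47.8 and 57.8 in Il10-/- Tnfr1-/- colons, and 126.2, 49.96, 48.6, 44.8 and 154.6 in Il10-/- colons. Il10-/- replicates 6 and 1 held all of the separation, and the other 3 Il10-/- libraries lay inside the Il10-/- Tnfr1-/- range. The means were 44.2 ± 10.7 in Il10-/- Tnfr1-/- and 84.8 ± 51.7 in Il10-/- colons, a log2 fold change of -0.76 ± 0.34 (SE; limma unadjusted p = 0.0450, adjusted p = 0.536). Without Il10-/- replicate 6 it was -0.50, and 0 of the 40 genes then had an unadjusted p under 0.05, against 3.52% of all genes tested. The kinetochore genes Cenpe and Cenpf had log2 fold changes of -0.34 and -0.19.

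The 6 genes of the spindle and cytokinesis had a median log2 fold change of 0.00, 3 above 0 and 3 below. Prc1, which bundles microtubules between the separating chromosomes, had 11.1, 12.3, 19.8, 26.6, 12.1 and 13.99 in Il10-/- Tnfr1-/- colons and 35.2, 17.3, 12.6, 12.5 and 13.2 in Il10-/- colons, a log2 fold change of -0.13 ± 0.30 (SE). Tpx2, a spindle assembly factor, had 5.59, 8.43, 11.6, 15.1, 5.92 and 6.65 in Il10-/- Tnfr1-/- colons and 29.3, 10.2, 6.23, 5.24 and 8.45 in Il10-/- colons, a log2 fold change of -0.21 ± 0.40 (SE). Both turned positive without Il10-/- replicate 1, to 0.14 and 0.18. The motor gene Kif11 (0.02), whose protein separates spindle poles, the cytokinesis motor gene Kif20a (0.04), the spindle protein gene Nusap1 (0.00) and Hmmr (0.01) were closest to 0. Kif11 stands in the deposited values under 2 gene identifiers with identical values, of which 1 was used. These 4 spindle genes were also among the genes with the widest gap between Il10-/- replicate 1 and the other Il10-/- libraries, at 4.63, 4.43, 4.05 and 5.66 times their median.

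**Figure D5:**
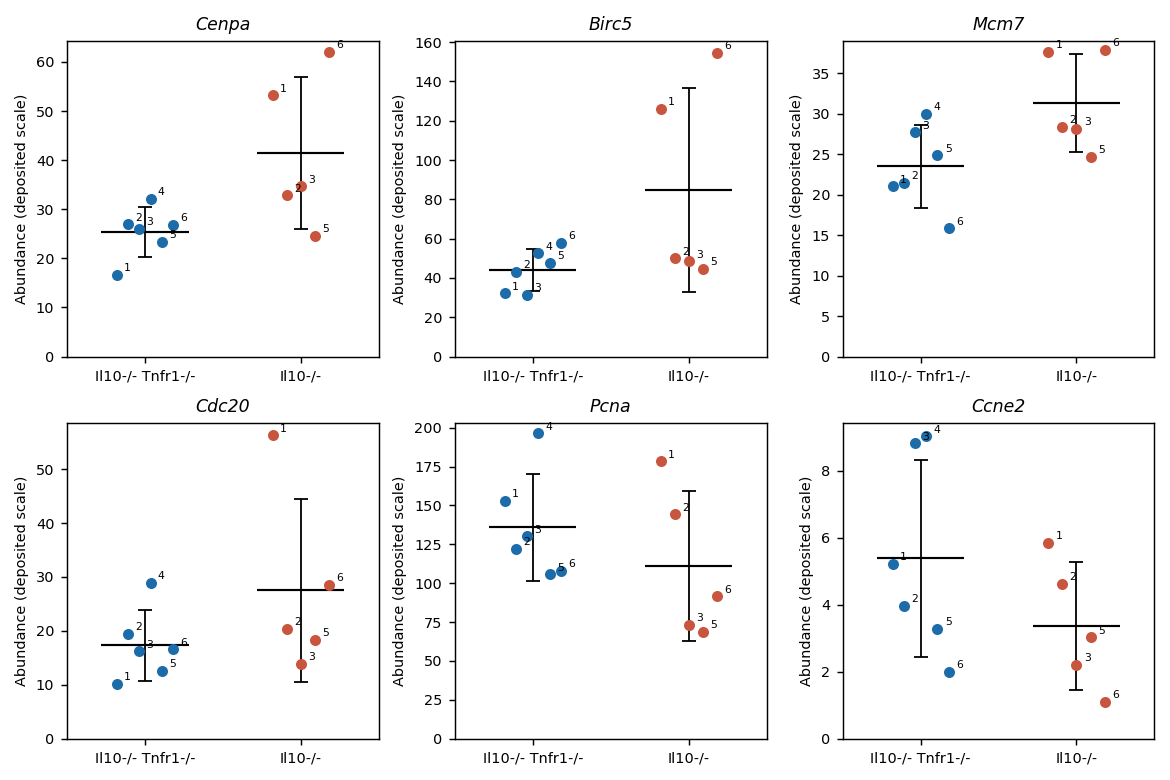
Abundance on the deposited scale of Cenpa, Birc5, Mcm7, Cdc20, Pcna and Ccne2 in each library, with Il10-/- Tnfr1-/- left of Il10-/-. Points carry replicate numbers, lines are means and bars are SD; Il10-/- replicates 1 and 6 lie above every Il10-/- Tnfr1-/- library for Cenpa, Birc5 and Mcm7.

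The deposited values are per transcript, and the 40 genes comprised 208 transcripts. The most abundant transcript of a gene held at least 50% of its abundance for 34 genes. It was annotated as protein-coding for 33 genes, and as a retained intron, a decay target or a processed transcript, classes apart from protein-coding ones, for 6: Mcm3, Gins2, Cenpe, Rrm1, Tyms and Top2a. Summing a gene's transcripts therefore mixes messages, and the values were recomputed without these 3 classes, an alternative chosen after seeing the data.

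Of the 3 genes with an unadjusted p under 0.05, only Birc5 had no abundance in the classes left out. For Cenpa the left-out transcripts carried 70.8% of the abundance and most of the difference. They had 10.7, 18.2, 17.99, 21.7, 15.3 and 17.2 in Il10-/- Tnfr1-/- colons, against 33.8, 23.6, 27.8, 18.04 and 50.01 in Il10-/- colons. The remaining Cenpa transcripts had 5.96, 8.76, 7.99, 10.5, 8.07 and 9.62 in Il10-/- Tnfr1-/- colons, against 19.5, 9.24, 6.85, 6.52 and 12.1 in Il10-/- colons. On those remaining transcripts the log2 fold change of Cenpa was -0.24 ± 0.26 (SE; limma adjusted p = 0.675), in place of -0.65.

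The left-out transcripts of Mcm7 averaged 7.25 ± 4.67 in Il10-/- Tnfr1-/- and 14.1 ± 9.26 in Il10-/- colons, and the remaining ones 16.2 ± 8.05 in Il10-/- Tnfr1-/- and 17.2 ± 10.6 in Il10-/- colons, a log2 fold change of -0.06 ± 0.40 (SE). In Il10-/- replicate 6 the left-out transcripts of Mcm7 were at 27.2 and the remaining ones at 10.7, whereas in Il10-/- replicate 1 they were at 2.66 and 34.95. Both libraries had nearly the same summed Mcm7, 37.9 and 37.6.

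For Pcna, Tyms, Top2a, Mcm3 and Rrm1, among others, the remaining transcripts gave another value than the sum. The remaining Pcna transcripts averaged 104.2 ± 20.1 in Il10-/- Tnfr1-/- and 76.6 ± 42.4 in Il10-/- colons, a log2 fold change of 0.60 ± 0.31 (SE; limma adjusted p = 0.555). The remaining Tyms transcripts averaged 9.99 ± 3.27 in Il10-/- Tnfr1-/- and 17.7 ± 9.08 in Il10-/- colons, a log2 fold change of -0.73 ± 0.31 (SE; limma unadjusted p = 0.0385, adjusted p = 0.555), where the sum gave 0.05. For Top2a, 73.8% of the abundance was left out, and the log2 fold change of the rest was 0.08, where the sum gave -0.35. Mcm3 and Rrm1 each had 65.3% left out, and the rest gave 0.35 for Mcm3, where the sum gave -0.10, and 0.21 for Rrm1, where the sum gave -0.26. Over the 40 genes without these classes, 14 had a log2 fold change above 0, 2 had an unadjusted p under 0.05 (Tyms and Birc5, both below 0) against 7.86% of all genes tested, and the score differences were 0.05 for replication, -0.20 for mitosis and 0.26 for replication minus mitosis.

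The share of abundance in the left-out classes, averaged over the 40 genes, was 17.6% ± 1.45 in Il10-/- Tnfr1-/- and 17.7% ± 2.20 in Il10-/- colons (SD, n = 6 and 5). It was lowest in Il10-/- replicate 1, at 14.4%. Averaged over all genes tested it was 17.7% ± 1.14 in Il10-/- Tnfr1-/- and 19.2% ± 1.61 in Il10-/- colons. Its part in the differences of single genes was not tested.

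In the authors' deposited table, 105 transcripts of the 40 genes have a p-value and 5 of them (4.76%) have one under 0.05, against 6.83% of all 43192 transcripts with a p-value. The smallest q-value of these transcripts in the authors' deposited table is 0.684. In the authors' deposited table the log2 fold is below 0 for the leading transcript of 30 of the 40 genes, at -0.80 for Birc5, -0.22 for Cenpa, 0.48 for Pcna and 0.77 for Ccne2. No source used here says which libraries gave those values.

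Among the 5 libraries with names starting with 1, the differences were larger, and they include both the highest and the lowest mitosis score, in Il10-/- replicate 1 and Il10-/- Tnfr1-/- replicate 1. There the differences of Il10-/- Tnfr1-/- minus Il10-/- were -0.35 for replication, -0.72 for mitosis and 0.36 for replication minus mitosis. With 2 colons against 3, 7 of the 40 genes did not overlap, against 14.6% of all genes tested, and 0 were called by limma with Benjamini-Hochberg adjustment.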

How the data were processed

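Stranded mRNA was sequenced from Trizol-homogenized colons, per the labels' protocols. Per the submitters' processing notes, kallisto, sleuth and CASAVA were used with the mouse build mm10, with settings that no source used here gives. The authors deposited an abundance per transcript and library, a signal that is never negative and is not a count, with their own p-value, q-value and log2 fold per transcript. After 866 repeated rows were dropped, 113193 transcripts were summed to 35688 genes. Of 12 samples, 11 matched a column by title. The remaining column matched no title and was not used, and 1 Il10-/- sample (replicate 4) had no matching column.

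Genes over 1 in at least 5 libraries were tested with limma 3.58.1 (R 4.3.3, data.table version 1.17.8), with trend and robust moderation, on log2(value + 0.5). Fold changes are on that scale and understate the change of low genes. Two-sided p-values were adjusted over all genes by the Benjamini-Hochberg method, at a threshold of 0.05. The fit was tested on simulated data. A score is the mean of centred log2 values. GENCODE release M21 gave coordinates and transcript classes, matching 96.6% of transcripts. The genes and lists were chosen with earlier results of these data known. Named in every library were Mki67, Top2a, Pcna and, per role, the gene of highest mean and that of smallest p. Mcm6, Rrm2, Hmmr, the single markers Hoxb13 and Cdx2, and the transcript values were picked after the data were seen. From each wider list the 2 genes of smallest p were named. Alternatives covered the pseudocount, filter, scaling, moderation, transcript choice, covariates and the libraries used.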

Additional observations from a re-analysis of the deposited data

Results flagged for a closer look

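A named gene's highest or lowest library was called apart by Dixon's rule. Its gap to the nearest other library of its genotype, divided by that genotype's range, was above the critical value for the group's size. For a single group, chance gives a flag about 1 time in 20. The genes were measured in the same animals, so their flags are not independent, and the number flagged was not tested against chance. Ccne1 stood apart in Il10-/- Tnfr1-/- replicate 4, at 9.31. Plk1 stood apart in Il10-/- replicate 1, at 43.6, and so did Tpx2, at 29.3, Foxm1, at 18.1, and Prc1, at 35.2. Over all 40 genes and both genotypes, 18 of 80 gene and genotype pairs were flagged, 4 in Il10-/- Tnfr1-/- replicate 4 and 14 in Il10-/- replicate 1.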

How the results depend on the processing

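No paired analysis was possible because the replicate numbers only name samples. Limma called 0 of the 40 genes in every setting run, with their smallest adjusted p between 0.268 and 0.9998. Over all genes it called 1 after quantile normalization. The number of the 40 genes at an unadjusted p under 0.05, 3 as reported, was 0 with an equal total per library, 0 with leading transcripts alone, 1 with the smooth muscle covariate and 1 with the first digit as a covariate. Of all genes tested 8.34% had such a p as reported, and 6.76%, 7.26%, 4.54% and 1.79% under these 4 settings. The number without overlap was 7 of 40 for names starting with 1, against 14.6% of all genes tested. The log2 fold change of Ccne1, 0.00 as reported, was -0.064 with size factors, -0.12 after quantile normalization, -0.059 on the leading transcript, -0.034 without retained-intron, decay and processed transcripts, -0.20 and -0.046 with the smooth muscle and epithelium covariates and -0.56 both with the first digit and for names starting with 1. Prc1 was 0.012 with an equal total, and Top2a 0.078 without the transcript classes above. The cause was not tested.

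Leaving out 1 library at a time, all genes called ranged from 0 to 2. Of the 40 genes, 0 to 3 had an unadjusted limma p under 0.05, against 3.52% to 18.2% of all genes tested. Those without overlap ranged from 0 to 1, against 0.655% to 2.49% of all genes tested. The log2 fold change of Ccne1 ranged from -0.19 to 0.19, Cdk1 from -0.42 to 0.093, Prc1 from -0.28 to 0.14 and Tpx2 from -0.42 to 0.18, the last 3 positive without Il10-/- replicate 1 alone. The replication score difference ranged from -0.11 to 0.21, the mitosis one from -0.38 to 0.08 and their contrast from 0.13 to 0.30. The contrast was positive in every setting run, from 0.13 to 0.36, but not all settings could move it. Scaling a whole library nearly cancels in it, and it was 0.25 both with size factors and with an equal total. The first digit as a covariate and names starting with 1 gave the same 0.36, because every other digit belongs to 1 genotype. An equal total moved the median of all genes from 0.05 to 0.19 and that of the 40 genes to 0.02, with 21 of 40 above 0. Size factors gave 6 of 40 above 0. The values are not counts, so depth sets no stated limit, and 5 to 6 animals limit the precision.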

Other observations

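Wider lists of replication and mitosis genes also had log2 fold changes, Il10-/- Tnfr1-/- minus Il10-/-, mostly below 0, without a call. Limma with Benjamini-Hochberg adjustment called 0 genes of any of the 5 lists. Over all genes tested, 44.5% had a log2 fold change below 0, and 3.6% were lower with an unadjusted limma p under 0.05. These lists were read on the deposited scale only. Of 42 other replication genes 33 had a log2 fold change below 0, with a median of -0.11, and 5 had an unadjusted p under 0.05, all lower. Pold2, a subunit of DNA polymerase delta, averaged 26.5 ± 4.84 in Il10-/- Tnfr1-/- and 37.7 ± 8.32 in Il10-/- colons (SD, n = 6 and 5), a log2 fold change of -0.50. Mcm10, which helps start the replication fork, averaged 7.98 ± 1.79 in Il10-/- Tnfr1-/- and 11.9 ± 2.99 in Il10-/- colons (-0.55). Of 51 other mitosis genes 41 had one below 0, with a median of -0.17, and 3 had an unadjusted p under 0.05, all lower. Il10-/- replicate 1 was the highest library for 41 of these 51 genes. The mean score of the 51 genes was -0.09 in Il10-/- Tnfr1-/- and 0.10 in Il10-/- colons, or -0.13 in Il10-/- colons without replicate 1. For the 42 replication genes the same means were -0.06, 0.08 and -0.04. Ncapd2, a subunit of the condensin complex that compacts chromosomes, averaged 31.0 ± 6.15 in Il10-/- Tnfr1-/- and 49.5 ± 12.5 in Il10-/- colons (-0.66), and Troap, a spindle protein gene, 5.46 ± 1.64 in Il10-/- Tnfr1-/- and 10.1 ± 3.28 in Il10-/- colons (-0.82).

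The lists that govern the decision to divide had median log2 fold changes above 0, as did all genes tested. Of all genes tested 55.5% had one above 0, with a median of 0.05. Of 10 G1 drivers 7 had one above 0, with a median of 0.16. Ccnd2, the gene of cyclin D2, averaged 38.8 ± 15.6 in Il10-/- Tnfr1-/- and 20.3 ± 6.35 in Il10-/- colons, a log2 fold change of 0.86, while E2f2 averaged 6.68 ± 1.57 in Il10-/- Tnfr1-/- and 10.5 ± 3.28 in Il10-/- colons (-0.59). Of 13 tested cell cycle inhibitors 7 were above 0, with a median of 0.10. Btg1, an antiproliferative gene, averaged 110.7 ± 31.4 in Il10-/- Tnfr1-/- and 63.9 ± 11.3 in Il10-/- colons (0.76), and Rbl2, a retinoblastoma relative, 9.61 ± 2.31 in Il10-/- Tnfr1-/- and 7.19 ± 2.65 in Il10-/- colons (0.45). Of 12 genes of the DREAM and MuvB complexes 8 were above 0, with a median of 0.24. Among them Lin52 averaged 4.18 ± 0.74 in Il10-/- Tnfr1-/- and 2.87 ± 0.86 in Il10-/- colons (0.50), and Mybl2, which encodes the B-Myb activator of mitosis genes, 5.13 ± 2.05 in Il10-/- Tnfr1-/- and 9.07 ± 1.27 in Il10-/- colons (-0.83). The adjusted p of these named genes lay between 0.536 and 0.537 by limma with Benjamini-Hochberg adjustment.

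The slope of log2 abundance on log2 transcript length over all genes was 0.05 ± 0.09 in Il10-/- Tnfr1-/- and -0.06 ± 0.13 in Il10-/- colons, lowest in Il10-/- replicate 6 at -0.25. The median length of the leading transcript was 2581.5 bases in the replication set, 1862 in the mitosis set and 2199 over all genes tested.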
